A study of Homo sapiens with 12 samples.

Results

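RNF213 is a very large ubiquitin ligase that interferon induces and that is known to sit on lipid droplets. The comparison described here set K562 cells with a knockdown of RNF213 (RNF213kd) against wild-type cells, both exposed to palmitate, the most common saturated fatty acid of the diet. It comprises 2 of the 12 labelled libraries of the series, 1 for each genotype, from the third of 3 experiments. The study asks how cells react when a saturated fatty acid becomes toxic, and this comparison asks which of those reactions differ when RNF213 is reduced. K562 is a human leukemia line that carries the BCR-ABL1 fusion and expresses embryonic and fetal globin genes. The cells received 0.2 mM palmitate bound to albumin. The labels state an exposure of 20 h, whereas a legend inside the deposited table states 16 h. The same experiment held the 2 untreated controls, wild type and RNF213kd with no fatty acid. Wild-type libraries of experiments 1 and 2, untreated and with palmitate, serve below for gene lists and for the spread. Cells of experiment 2 with a knockout of GPAT4, exposed to palmitate, are used for the level of RNF213 and in the last section. Wild-type libraries with the fatty acid palmitoleate, alone or with palmitate, enter only the mean level by which genes were kept. How the knockdown was made, and whether it is 1 clone, is not given in the sources used here. RNA of 3 biological replicates was pooled into each library. No comparison of these libraries therefore has a replicate of its own.

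Palmitate that cells cannot store in triglyceride enters membrane phospholipids and makes them stiff. In the endoplasmic reticulum (ER) this sets off the unfolded protein response. Its sensors raise chaperones and degradation factors through ATF6 and XBP1, and through PERK and ATF4 they raise the genes of the integrated stress response. Chemokines, antioxidant genes and genes of the cell cycle arrest also react in many cell types.

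Values are FPKM, fragments scaled to transcript length and to the mapped fragments of the library, which can be compared between genes because they are per length. A ratio is the difference of log2(FPKM + 1) between knockdown and wild type, so that 1 and -1 mark a 2-fold difference and low genes are understated. Of 23153 genes shared by the 3 tables, 11075 with a mean of at least 1 FPKM were examined. Summed FPKM of the 4 libraries of the experiment was 612355 to 673981, and 10495 to 10782 genes per library reached 1 FPKM. Read depth is unknown. The median ratio of all examined genes under palmitate was 0.03. With 1 library on each side, limma was run on the spread of the wild-type palmitate response between the 3 experiments, on the assumption that single libraries vary in the same way. Its 95% intervals are given below, and they are wide, with a median standard error of 0.39.

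RNF213 (chr17:78234660-78411884, hg19) itself was measured at 1.96 FPKM in untreated wild type, 1.39 in the untreated knockdown, 3.08 in wild type with palmitate and 1.54 in the knockdown with palmitate. The knockdown level was 71.1% of wild type without fatty acid and 50.1% with palmitate. The ratio under palmitate was -0.68, with a limma interval of -1.69 to 0.33 that includes 0. In the 3 separately scaled tables the wild-type palmitate libraries were at 6.26, 4.76 and 3.08 FPKM and the untreated ones at 4.67, 1.49 and 1.96, all above the knockdown library of the same treatment. The knockdown's 1.54 FPKM under palmitate was above the lowest untreated wild-type value. The reduction was therefore in the labelled direction in both conditions and modest in the transcript. Palmitate raised RNF213 in wild type in each of the 3 experiments (responses of 0.36, 1.21 and 0.46). In experiment 2 RNF213 under palmitate was at 4.76 FPKM in wild type and 2.42 in the GPAT4 knockout, a ratio of -0.75. A lower RNF213 level under palmitate was thus not particular to the knockdown.

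Under palmitate 89 genes were at least 2-fold lower in the knockdown, or 0.804% of those examined, and 61 were at least 2-fold higher, or 0.551%. Small RNA genes, which make up 197 of the examined genes, supplied 33 of the lower and 34 of the higher genes, leaving 56 and 27 others. limma called 11 genes (0.0993%) at a Benjamini-Hochberg adjusted p under 0.05, 8 higher and 3 lower, and 87 genes had an unadjusted p under 0.05. Each of the 11 was a small nucleolar, micro or SNAR RNA gene. SNORD55, the gene of a small nucleolar RNA, had the largest ratio of them in size, listed at 3830 FPKM in wild type and at 0 in the knockdown. For every gene other than small RNA genes the adjusted p was 1, so that the single-gene differences below are sizes of 2 libraries and not tested effects. Without experiment 2 in the spread limma called 64 genes, 13 of them other than small RNAs, so the count rests on that experiment. Without fatty acid 51 genes (0.46%) were at least 2-fold higher and 42 (0.379%) at least 2-fold lower in the knockdown.

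The genes furthest lower in the knockdown with palmitate were ones that palmitate raised in wild type. IFI16, an interferon-inducible sensor of DNA (chr1:158979682-159024945, hg19), was at 1.81 FPKM in untreated wild type, 1.22 in the untreated knockdown, 49.4 in wild type with palmitate and 11.5 in the knockdown with palmitate. Palmitate thus brought IFI16 up in both genotypes, and the level in the knockdown stayed below that of wild type, at a ratio of -2.02 with an interval of -3.63 to -0.40. OLAH, the thioesterase that releases medium-chain fatty acids from fatty acid synthase (chr10:15085895-15115851, hg19), stood at 0.0968 FPKM in untreated wild type, 0.0336 in the untreated knockdown, 20.9 in wild type with palmitate and 5.03 in the knockdown with palmitate. Its ratio was -1.86, with an interval of -4.53 to 0.82. G0S2, an inhibitor of the triglyceride lipase ATGL on lipid droplets, was at 1.53 FPKM in untreated wild type, 2.07 in the untreated knockdown, 25.3 in wild type with palmitate and 7.89 in the knockdown with palmitate, a ratio of -1.56 with an interval of -3.12 to -0.01. C7orf23, now TMEM243, a small membrane protein gene, was at 3.14 FPKM in untreated wild type, 2.65 in the untreated knockdown, 21 in wild type with palmitate and 6.51 in the knockdown with palmitate, a ratio of -1.55. For each of these 4 genes the untreated libraries differed by less than 2-fold, and the knockdown with palmitate stood between the untreated libraries and wild type with palmitate.

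The other 11 of the 15 genes furthest lower shared that order, except that LGALS3 and SCN9A in the knockdown with palmitate were also below untreated wild type. Values from wild type to knockdown under palmitate are given for them. They include UPP1, which breaks down uridine (9.86 to 2.63 FPKM), COL6A2, a collagen chain (5.87 to 1.2 FPKM), MILR1, an inhibitory receptor of mast cells (19.6 to 6.93 FPKM), and ANXA6, a membrane-binding annexin (11.7 to 4.09 FPKM). TM4SF19, a tetraspan membrane protein, went from 35.2 to 13.5 FPKM, and the transporter SLC22A15 from 5.57 to 1.7 FPKM. LGALS3, a galectin, C12orf39, now SPX, a peptide hormone, SCN9A, a sodium channel, ADM2, a peptide of the adrenomedullin family, and NDRG1, a stress-responsive differentiation gene, had ratios of -1.27, -1.26, -1.26, -1.23 and -1.20. In wild type all 15 were higher with palmitate than without in each of the 3 experiments. The wild-type palmitate library of experiment 3 also entered the ranking, while those of experiments 1 and 2 did not. In the knockdown all 15 were also higher with palmitate than without. For 12 of the 15 the knockdown difference was larger than the standard deviation of the wild-type response over the 3 experiments, and for 4 the limma interval left out 0. The 15 were picked by the size of that difference, so neither count tests it. Over all examined genes other than small RNAs, 26 had an interval below 0.

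**Figure D1:**
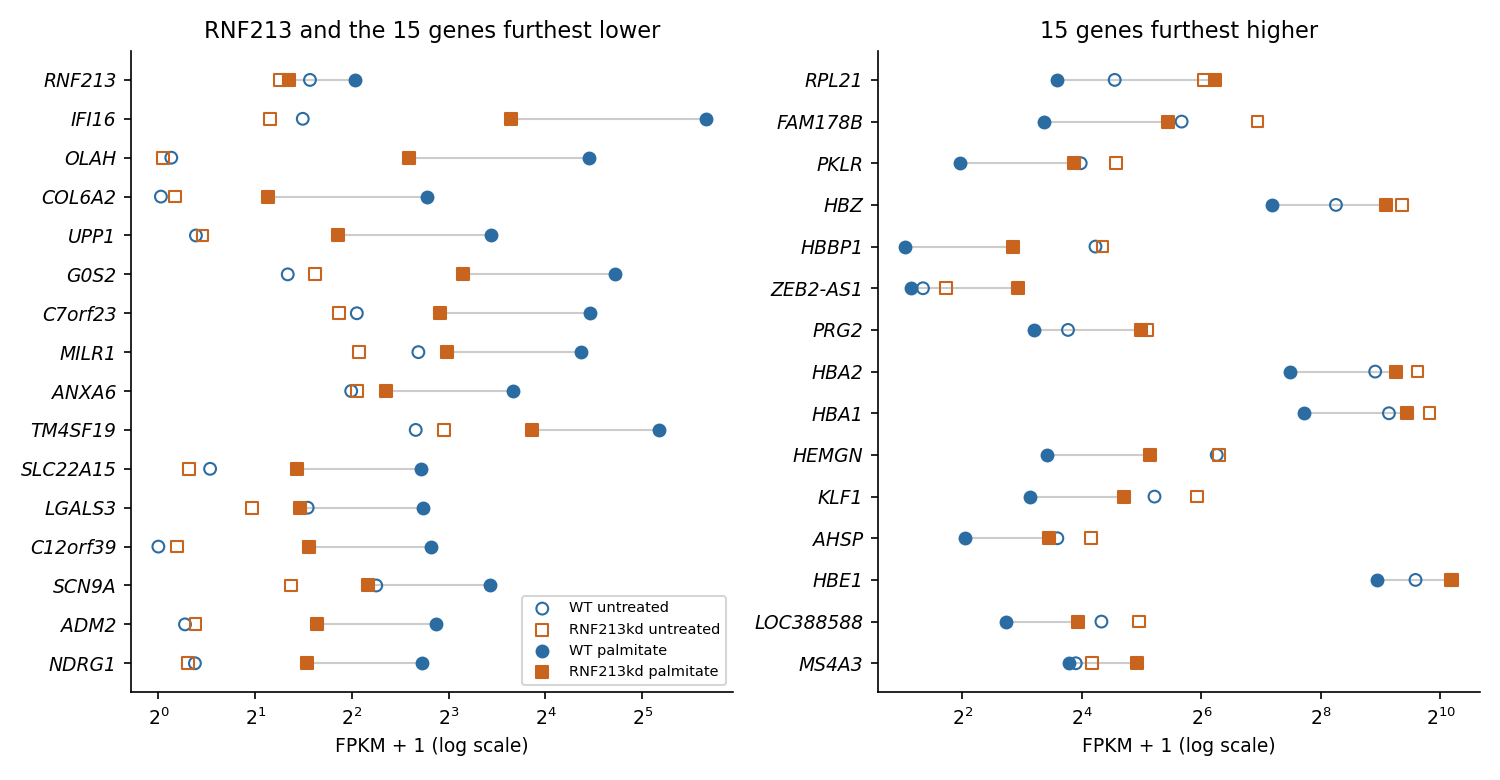
Level of RNF213, of the 15 genes furthest lower and of the 15 furthest higher in the knockdown under palmitate, as FPKM + 1 on a log axis. Open marks are untreated and filled marks palmitate libraries, circles wild type and squares RNF213kd, 1 library each, and the grey line joins the 2 palmitate libraries. On the left the filled squares lie between the open marks and the filled circles for most genes, and on the right most filled circles lie lowest.

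Of the 15 genes furthest higher in the knockdown 7 belong to the erythroid list, and those 7 were lower with palmitate than without in wild type in each of the 3 experiments. HBZ, embryonic zeta globin (chr16:202854-204504, hg19), was at 304 FPKM in untreated wild type, 655 in the untreated knockdown, 145 in wild type with palmitate and 541 in the knockdown with palmitate. Its ratio was 1.89 under palmitate, with an interval of 0.39 to 3.39, and 1.11 without fatty acid, so that zeta globin was more than 2-fold higher in the knockdown in both conditions. PKLR, the pyruvate kinase of liver and red cells, was at 14.8 FPKM in untreated wild type, 22.9 in the untreated knockdown, 2.88 in wild type with palmitate and 13.6 in the knockdown with palmitate, a ratio of 1.91 with an interval of 0.91 to 2.90. HEMGN, a nuclear regulator of erythroid cells, was at 75.5 FPKM in untreated wild type, 77.6 in the untreated knockdown, 9.71 in wild type with palmitate and 34.4 in the knockdown with palmitate, a ratio of 1.72 against 0.04 without fatty acid. KLF1, the transcription factor that drives adult globin and red cell genes (chr19:12995237-12998017, hg19), was at 36.2 FPKM in untreated wild type, 60.0 in the untreated knockdown, 7.82 in wild type with palmitate and 25.1 in the knockdown with palmitate, a ratio of 1.57 with an interval of -0.43 to 3.56. The wild-type levels of HEMGN and KLF1 with palmitate were the lowest of their 4 libraries, and those of the knockdown lay between them and the untreated levels.

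FAM178B reached 2.08 (9.32 FPKM in wild type and 42.5 in the knockdown), HBBP1, a globin pseudogene, 1.81, and AHSP, the chaperone of alpha globin, 1.40. HBA1 and HBA2, near-identical alpha globin genes whose reads cannot be told apart with certainty, summed to 386 FPKM in wild type and 1309 in the knockdown under palmitate, 3.39 times as much, and to 1042 and 1685 without fatty acid. HBE1, epsilon globin, was at 488 FPKM in wild type and 1159.8 in the knockdown. LOC388588 was at 5.64 FPKM in wild type and 14.4 in the knockdown. RPL21, a ribosomal protein gene with many pseudogene copies, had the highest ratio, 2.64, and an interval of -1.55 to 6.83. Its wild-type response to palmitate was 4.33, -0.39 and -0.96 in the 3 experiments, so its level is uncertain. PRG2, an eosinophil granule protein, MS4A3, a myeloid membrane protein, and ZEB2-AS1, an antisense transcript, had ratios of 1.79, 1.13 and 1.79. In wild type 12 of the 15 were lower with palmitate than without in each experiment, and RPL21, MS4A3 and ZEB2-AS1 were not. Here too the wild-type palmitate library of experiment 3 entered the ranking. All 15 also had a ratio above 0 without fatty acid, 4 of them past 2-fold (FAM178B, HBZ, PRG2 and RPL21).

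Whether this pattern holds for palmitate-responsive genes at large was examined with genes chosen in other libraries. In experiments 1 and 2, whose libraries are not part of the knockdown comparison, palmitate raised 524 genes at least 2-fold in wild type in both (4.73% of those examined) and lowered 472 (4.26%). Of the 524 raised genes 498 (95.04%) had a ratio below 0 in the knockdown under palmitate, against 43.7% of all examined genes. Their median ratio was -0.41, with an interquartile range of -0.63 to -0.26. At least 2-fold lower were 39 of the 524 (7.44%), and at least 2-fold higher was 1, SNAR-E. Of the 472 lowered genes 444 (94.1%) had a ratio above 0, against 55.4% of all examined genes. Their median was 0.37, with an interquartile range of 0.21 to 0.53, 19 were at least 2-fold higher and 1 was at least 2-fold lower. Seen from the other side, 39 of the 56 genes at least 2-fold lower that are not small RNAs (69.6%) belonged to the raised genes. Of the 27 at least 2-fold higher, 16 (59.3%) belonged to the lowered ones. With the trend on transcript GC content removed from every ratio, 583 genes counted as raised and 175 as lowered, and their median ratios were -0.45 and 0.42.

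Without fatty acid the raised genes lay near 0, while the lowered genes were again above it. In the untreated cells the raised genes had a median ratio of -0.03, with 54.0% below 0, against 44.4% of all examined genes. The lowered genes had a median of 0.26, with 88.8% above 0, against 54.8% of all examined genes. The untreated ratio went with transcript GC content (Spearman's rho 0.63 across 10628 genes), as did the wild-type response of experiment 1 in the opposite direction (-0.63), while the palmitate ratio did not (-0.02). With the trend on GC content removed, the untreated median of the lowered genes was 0.04, and their palmitate median was 0.34.

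**Figure D2:**
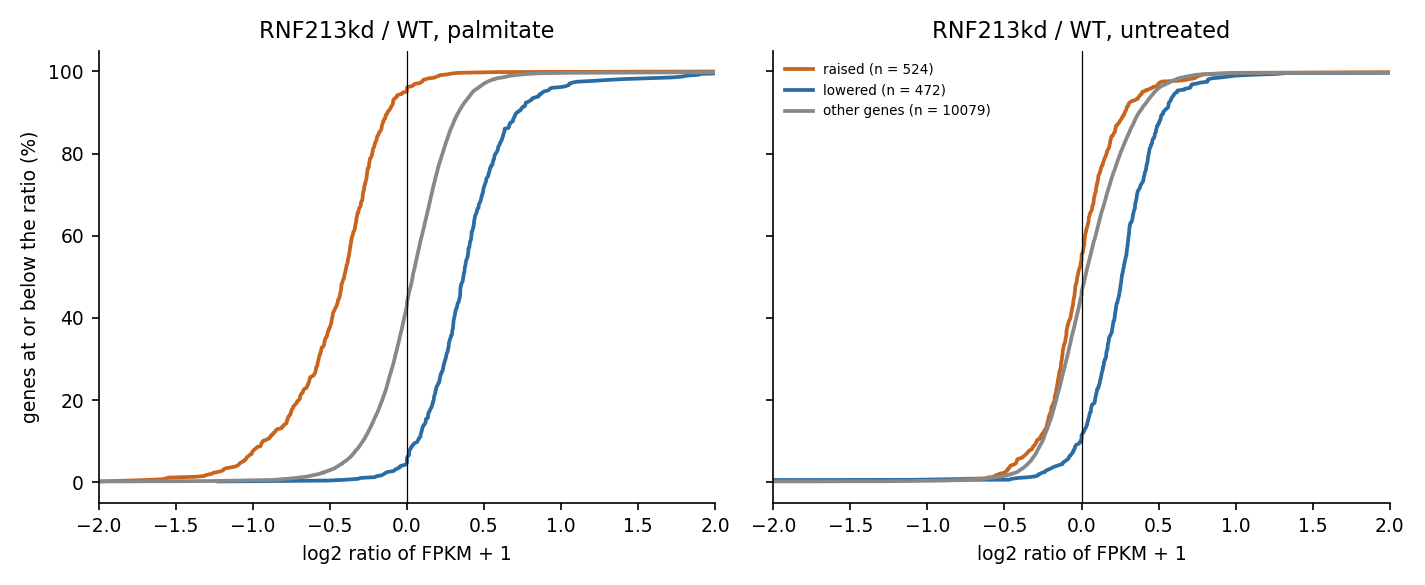
Cumulative share of genes (y axis, percent) by the log2 ratio of RNF213kd to wild type (x axis) under palmitate on the left and untreated on the right. Orange are the 524 genes raised and blue the 472 genes lowered by palmitate in wild type in experiments 1 and 2, and grey all other examined genes. Under palmitate the 3 curves stand apart, with medians of -0.41, 0.37 and 0.04.

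The size of the ratio followed the size of the palmitate response. Genes were binned by the mean wild-type response of experiments 1 and 2. The median knockdown ratio under palmitate was 0.60 for the 71 genes at a response of -2 or less, 0.31 for the 862 between -2 and -1, and 0.19 for the 1790 between -1 and -0.5. It was 0.04 for the 6190 genes within 0.5 of 0. On the raised side it was -0.14 for 1225 genes between 0.5 and 1, -0.33 for 715 between 1 and 2, -0.57 for 168 between 2 and 3, and -0.67 for the 54 genes above 3. The order of the medians was the reverse of the order of the responses at every step. Without fatty acid the medians of the lowered bins, in the same order, were 0.28, 0.22 and 0.12. On the lowered side a gradient was thus also present in untreated cells. The bins were not repeated with the GC trend removed. Across all examined genes Spearman's rho between the knockdown ratio under palmitate and the wild-type response was -0.69 for experiment 2 and -0.38 for experiment 1, and it was 0.09 with the untreated knockdown ratio. These are descriptions across genes, which are not independent replicates.

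**Figure D3:**
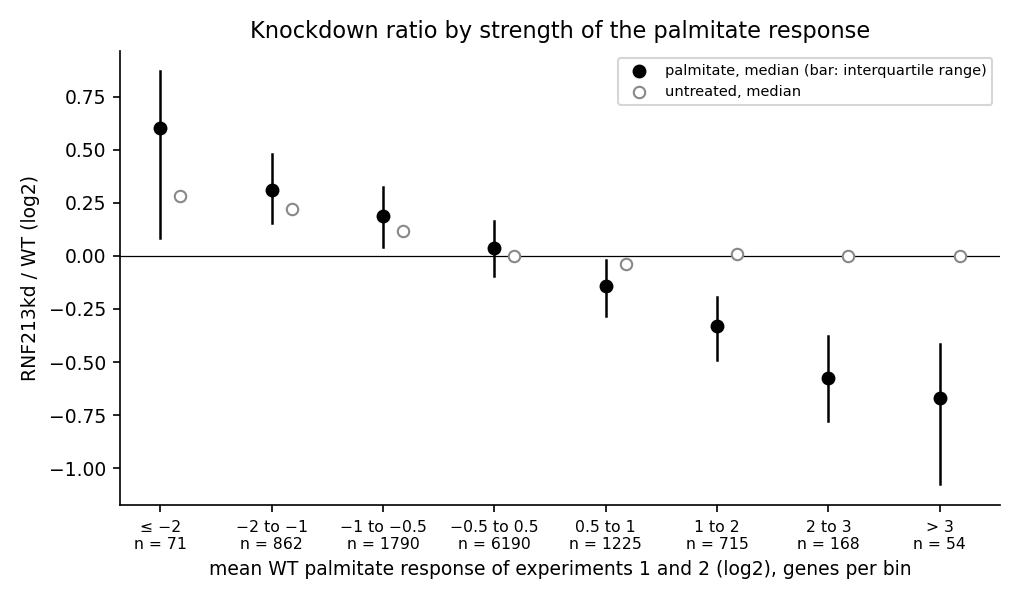
Median log2 ratio of RNF213kd to wild type (y axis) by the mean palmitate response of wild type in experiments 1 and 2 (x axis, log2, with the number of genes per bin). Filled points are palmitate with the interquartile range as a bar, and open points untreated. The filled points descend from 0.60 to -0.67. The untreated medians of the raised bins lie near 0, and those of the lowered bins descend from 0.28 to 0.12.

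The raised genes also had a positive median response to palmitate in the knockdown, and it was smaller. Within experiment 3 the raised genes had a median palmitate response of 1.32 in wild type and 0.91 in the knockdown, and 479 of the 524 (91.4%) responded less in the knockdown, against 49.95% of all examined genes. The lowered genes had a median of -0.66 in wild type and -0.55 in the knockdown, and for 295 of the 472 (62.5%) the knockdown's response was the higher value, against 49.5% of all examined genes. With the GC trend removed the medians were 1.41 in wild type and 0.92 in the knockdown for the raised genes, and -0.70 and -0.42 for the lowered genes. Each response rests on 1 pair of libraries. A difference in overall strength of exposure between 2 cultures and an effect of the knockdown cannot be told apart in this design. The wild-type response itself differed in size between experiments, as the values of single lists below show.

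**Figure D4:**
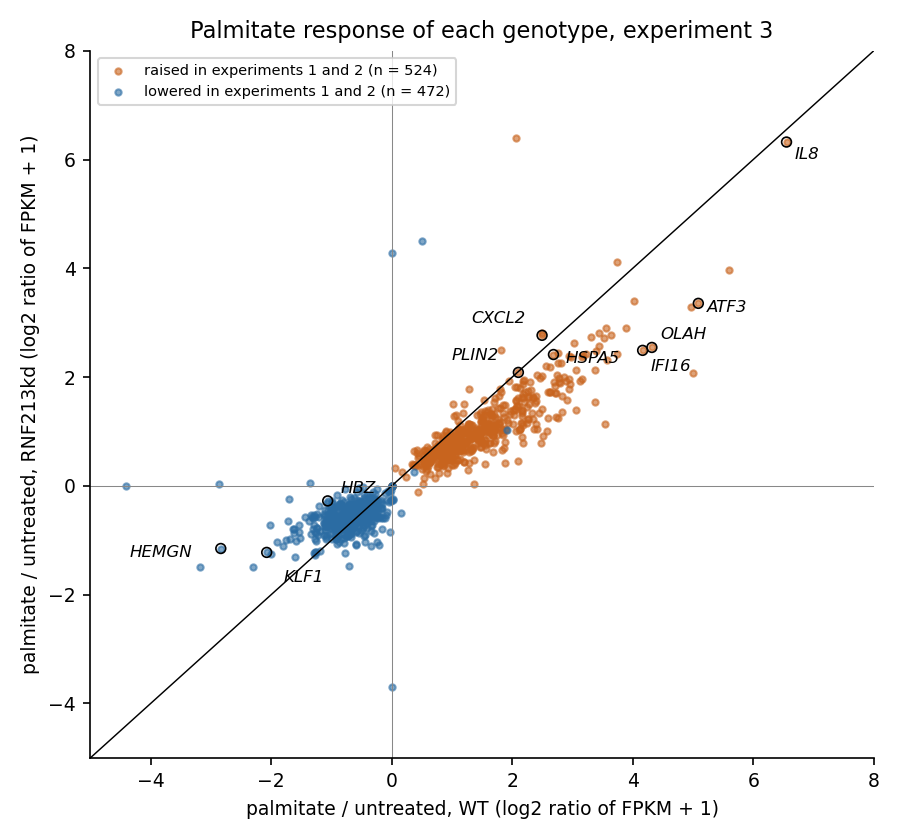
Log2 ratio of palmitate to untreated in RNF213kd (y axis) against that in wild type (x axis), experiment 3, 1 point per gene. Orange genes were raised and blue genes lowered by palmitate in experiments 1 and 2, the diagonal marks equal responses, and 1 small RNA gene, SNORD12B, lies outside the axes. Most orange points lie below the diagonal and IL8, PLIN2 and CXCL2 lie close to it.

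A few palmitate-raised genes responded about as strongly in the knockdown as in wild type, and they were singled out after their values were seen. PLIN2, the protein that coats lipid droplets and that fatty acids induce, was at 17.7 FPKM in untreated wild type, 20.8 in the untreated knockdown, 79.5 in wild type with palmitate and 91.8 in the knockdown with palmitate, a ratio of 0.21 with an interval of -0.80 to 1.21. IL8, now CXCL8, the gene of a neutrophil chemokine, was at 0.991 FPKM in untreated wild type, 0.955 in the untreated knockdown, 186 in wild type with palmitate and 155 in the knockdown with palmitate, a ratio of -0.26, with responses of 6.55 in wild type and 6.32 in the knockdown. CXCL2 and CXCL3, chemokines of the same family, were at 12.6 FPKM in wild type and 14 in the knockdown and at 45.8 FPKM in wild type and 55.9 in the knockdown. TIMP1, an inhibitor of matrix proteases, was at 484 FPKM in wild type and 561 in the knockdown. TNFAIP3, a brake on NF-kappaB signalling, was at 10.2 FPKM in wild type and 10.8 in the knockdown. The responses to palmitate in wild type and in the knockdown were 2.10 and 2.09 for PLIN2, 2.50 and 2.77 for CXCL2, 3.74 and 4.12 for CXCL3, 1.95 and 1.94 for TIMP1, and 2.05 and 1.81 for TNFAIP3. In all, 20 raised genes other than small RNAs had a ratio above 0, which does not by itself mean an equal response. The sterol gene INSIG1 was at 119 FPKM in untreated wild type, 118 in the untreated knockdown, 124 in wild type with palmitate and 149 in the knockdown with palmitate, so that it responded little in wild type of this experiment (0.06) and more in the knockdown (0.34).

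Among the lists of genes by function, the integrated stress response was lower in the knockdown under palmitate in nearly every member. Of 25 examined genes 24 had a ratio below 0, the median was -0.34, and 1, ATF3, was at least 2-fold lower. Of all examined genes 43.7% were below 0 and 0.804% at least 2-fold lower. Of the palmitate-raised genes at large 95.04% were below 0, with a median of -0.41, and 7.44% were at least 2-fold lower. INHBE lay just inside 2-fold at -0.99 and passed it, at -1.02 to -1.03, under 3 other settings. ATF3, a stress-induced transcription factor, was at 2.5 FPKM in untreated wild type, 4.6 in the untreated knockdown, 118 in wild type with palmitate and 56.3 in the knockdown with palmitate, a ratio of -1.06 with an interval of -3.08 to 0.97. INHBE, a subunit of activin E, was at 57.1 FPKM in wild type and 28.2 in the knockdown, NUPR1, a stress-induced nuclear protein, at 12.3 FPKM in wild type and 6.31 in the knockdown, and SESN2, which restrains mTORC1, at 53.2 FPKM in wild type and 29.9 in the knockdown. DDIT3, the gene of the pro-death factor CHOP, was at 46.2 FPKM in untreated wild type, 53.9 in the untreated knockdown, 426 in wild type with palmitate and 289 in the knockdown with palmitate, and TRIB3, a pseudokinase that CHOP induces, at 113 FPKM in wild type and 83.2 in the knockdown. ATF4 itself was at 345 FPKM in wild type and 258 in the knockdown. ASNS, asparagine synthetase, and CHAC1, which degrades glutathione, differed little, at 283 FPKM in wild type and 264 in the knockdown and at 7.66 FPKM in wild type and 6.82 in the knockdown.

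In untreated cells the same list pointed the other way. There 24 of the 25 members were higher in the knockdown, against 54.8% of all examined genes. The median ratio was 0.34, or 0.15 with the GC trend removed. DDIT4, an inhibitor of mTORC1, was at 20.9 FPKM in untreated wild type, 98.4 in the untreated knockdown, 253 in wild type with palmitate and 216 in the knockdown with palmitate, so its wild-type and knockdown levels differed by 2.19 untreated and by -0.23 under palmitate. GDF15, a stress cytokine, was at 13 FPKM in untreated wild type, 26.6 in the untreated knockdown, 187 in wild type with palmitate and 148 in the knockdown with palmitate. The median palmitate response of the list was 1.77, 2.85 and 2.49 in wild type in the 3 experiments and 1.58 in the knockdown. For 15 of the 25 genes the knockdown's response was below all 3 wild-type responses, against 17.2% of all examined genes. Of the palmitate-raised genes at large 82.3% (431 of 524) did so. The knockdown's response includes its untreated library, whose ratio followed GC content. Amino acid transporters had a similar form, with 10 of 11 below 0 under palmitate, against 43.7% of all examined genes, and 9 of 11 above 0 untreated. SLC6A9, a glycine carrier, and SLC3A2, the heavy chain of several exchangers, were at 6.65 FPKM in wild type and 3.33 in the knockdown and at 304 FPKM in wild type and 188 in the knockdown.

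Chaperones and folding enzymes of the ER were lower in the knockdown under palmitate without exception, 23 of 23. Their median was -0.40, with a range of -0.77 to -0.05. None was past 2-fold, although FKBP11 reached -1.11 with a pseudocount of 0.1 FPKM. Of all examined genes 43.7% were below 0, and of the palmitate-raised genes 95.04%, with a median of -0.41. HSPA5, the gene of BiP, the central ER chaperone, was at 132 FPKM in untreated wild type, 115 in the untreated knockdown, 855 in wild type with palmitate and 619 in the knockdown with palmitate, a ratio of -0.46 with an interval of -1.32 to 0.39. MANF, a secreted ER stress protein, was at 163 FPKM in wild type and 95.1 in the knockdown, DNAJB9, a cochaperone of BiP, at 58.3 FPKM in wild type and 34 in the knockdown, CRELD2, a secreted protein that ER stress induces, at 22.4 FPKM in wild type and 13.2 in the knockdown, and FKBP11, a prolyl isomerase, at 2.75 FPKM in wild type and 1.22 in the knockdown. HYOU1 and SDF2L1, partners of BiP, were at 166 FPKM in wild type and 111 in the knockdown and at 448 FPKM in wild type and 311 in the knockdown. The list's response was 1.14, 1.38 and 1.21 in wild type and 0.89 in the knockdown, and 16 of 23 genes responded less than in all 3 wild-type experiments. Among all examined genes 17.2% did so, and among the palmitate-raised genes 82.3%. The chaperone list's untreated median was -0.10, with 16 of 23 below 0, and with the GC trend removed it was -0.17, with 21 of 23 below 0. Factors for degradation and export of ER proteins followed, with 34 of 35 below 0 and a median of -0.29, beside the same 43.7% and 95.04%. EDEM1, which marks glycoproteins for degradation, was at 34 FPKM in wild type and 19.5 in the knockdown, DERL2, of the export channel, at 33.9 FPKM in wild type and 19.7 in the knockdown, and HERPUD1, a scaffold of that machinery, at 96.9 FPKM in wild type and 59.5 in the knockdown. The ER stress sensors and their factors were mixed, with 10 of 14 below 0. EIF2AK3, the gene of PERK, was at 11.7 FPKM in wild type and 7.87 in the knockdown and XBP1 at 91.7 FPKM in wild type and 72.7 in the knockdown, while ERN1, the gene of IRE1, and ATF6 were at 4.86 FPKM in wild type and 4.76 in the knockdown and at 15 FPKM in wild type and 15.4 in the knockdown.

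The promoters of several of these genes carry the ER stress element, CCAAT and CCACG with 9 bases between them, the recognition sequence of ATF6 and NF-Y. Both strands of the 250 bases before the start of each gene were searched in RefSeq sequences of GRCh38.p14, which cover 8571 of the examined genes. The element occurs in 22 of 27305 promoters (0.0806%), in 14 of those of examined genes (0.163%) and in 6 of the 22 chaperone genes that have a sequence. The windows below show why these genes are read together, and were chosen after the values were seen. Each runs in the direction of the gene with up to 25 bases on each side, and capitals mark the element, which reads CGTGG to ATTGG where it lies on the other strand. HSP90B1 holds it at 2 places, of which the nearer to the start is shown.
HSPA5 chr9:125241366-125241434: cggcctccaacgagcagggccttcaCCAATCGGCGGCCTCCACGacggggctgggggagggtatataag
CRELD2 chr22:49918529-49918597: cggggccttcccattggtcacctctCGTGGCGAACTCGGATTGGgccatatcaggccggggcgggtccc
CALR chr19:12938359-12938427: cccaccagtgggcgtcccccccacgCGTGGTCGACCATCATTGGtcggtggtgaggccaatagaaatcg
ERO1LB chr1:236282158-236282208: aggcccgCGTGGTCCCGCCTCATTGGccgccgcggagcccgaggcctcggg
HSP90B1 chr12:103930296-103930364: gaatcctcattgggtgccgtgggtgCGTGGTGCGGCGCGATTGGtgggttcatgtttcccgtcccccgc
CANX chr5:179698753-179698821: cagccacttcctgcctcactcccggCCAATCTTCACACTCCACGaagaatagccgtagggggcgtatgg
XBP1 chr22:28800578-28800646: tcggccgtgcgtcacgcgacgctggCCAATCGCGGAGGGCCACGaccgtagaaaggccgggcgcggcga
The 7 genes shown ranged widely under palmitate. CALR and CANX, the lectin chaperones calreticulin and calnexin, were at 511 FPKM in wild type and 387 in the knockdown and at 347 FPKM in wild type and 335 in the knockdown. ERO1LB, an oxidase of disulfide formation, was at 7.76 FPKM in wild type and 5.64 in the knockdown, and HSP90B1, the ER member of the HSP90 family, at 1073 FPKM in wild type and 873 in the knockdown. Their ratios ran from -0.72 for CRELD2 to -0.05 for CANX, so that holding the element went with different sizes of difference. XBP1 lies outside the chaperone list. The element starts 66 bases before the start in HSPA5, 80 in CRELD2 and 225 in CALR.

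TGATGNAA, the letters read by ATF4 with a C/EBP partner, was found in 870 of the 27305 promoters (3.19%), in 106 of those of examined genes (1.24%), and in 3 of the 20 integrated stress response genes with a sequence, namely ATF3, CHAC1 and ASNS. HERPUD1 held it as well, and so did HSPA4L, a cytosolic heat shock gene whose window is not shown. The windows of ATF3, HERPUD1, CHAC1 and ASNS are given because these genes differ in ratio while they share the letters, with the match in capitals.
ATF3 chr1:212565191-212565248: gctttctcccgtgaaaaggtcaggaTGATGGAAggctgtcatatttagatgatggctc
HERPUD1 chr16:56931941-56931998: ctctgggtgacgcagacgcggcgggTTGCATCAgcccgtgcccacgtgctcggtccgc
CHAC1 chr15:40953237-40953294: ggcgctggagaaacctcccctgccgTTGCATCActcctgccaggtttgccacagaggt
ASNS chr7:97872444-97872501: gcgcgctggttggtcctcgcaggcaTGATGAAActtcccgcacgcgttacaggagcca
The ratios were -1.06 for ATF3, -0.69 for HERPUD1, -0.15 for CHAC1 and -0.10 for ASNS, and HSPA4L was higher in the knockdown, at 0.48. TGANTCA, a loose form of the AP-1 letters with any base at N, was in 6.60% of promoters and 3.52% of those of examined genes. The matches of IL8 and DDIT3 read TGACTCA, and that of HSPA5 reads TGAATCA. A loose form of the NF-kappaB letters, GGG and CC with 5 bases between them, was in 53.7% and 69.9% and does not tell genes apart. A match describes letters and not a bound site.

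Antioxidant targets of NRF2 were lower in 14 of 16 members, with a median of -0.36. Of all examined genes 43.7% were lower, and of the palmitate-raised genes 95.04%, with a median of -0.41. NQO1, a quinone reductase, was at 66.1 FPKM in untreated wild type, 47.1 in the untreated knockdown, 145 in wild type with palmitate and 81.9 in the knockdown with palmitate. GCLC, the catalytic subunit for glutathione synthesis, was at 23.1 FPKM in wild type and 12.8 in the knockdown, and the ferritin genes FTH1 and FTL, which store iron, at 3886 FPKM in wild type and 2764 in the knockdown and at 6379 FPKM in wild type and 5043 in the knockdown. Lysosome and autophagy genes were lower in 23 of 27, against the same 43.7% of all examined genes, with a median of -0.29. WIPI1, which binds lipid at forming autophagosomes, was at 3.37 FPKM in untreated wild type, 3.78 in the untreated knockdown, 37.3 in wild type with palmitate and 17.3 in the knockdown with palmitate, a ratio of -1.07, and it was the member of that list past 2-fold. CTSL1, now CTSL, and CTSD, lysosomal proteases, were at 429.9 FPKM in wild type and 233 in the knockdown and at 56.5 FPKM in wild type and 32.1 in the knockdown, and SQSTM1, an autophagy receptor, at 306 FPKM in wild type and 236 in the knockdown. Without fatty acid the medians of both lists were 0.01 and 0.10, and with the GC trend removed -0.07 and -0.03.

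Inflammatory genes were divided. Of 12 examined targets of NF-kappaB 8 had a ratio below 0, against 43.7% of all examined genes, with a median of -0.26. IER3, an early response survival gene, was at 72.9 FPKM in wild type and 36.5 in the knockdown, and RELB, an NF-kappaB subunit, at 5.06 FPKM in wild type and 2.8 in the knockdown. CCL2, a monocyte chemokine, and IL6, a cytokine, were at 3.22 FPKM in wild type and 1.97 in the knockdown and at 3.96 FPKM in wild type and 2.52 in the knockdown, next to the chemokines CXCL2 and CXCL3 above with ratios over 0. Immediate early genes had a median of 0.04, with 8 of 15 above 0, and of -0.08 among the 10 members with a mean of at least 5 FPKM. DUSP5, a phosphatase of ERK, was at 8.27 FPKM in wild type and 3.88 in the knockdown, JUN at 53.2 FPKM in wild type and 34.8 in the knockdown, and FOS at 3.73 FPKM in wild type and 3.3 in the knockdown. Apoptosis regulators were lower in 10 of 15, against the same 43.7% of all examined genes. BBC3, the gene of PUMA, was at 22.7 FPKM in wild type and 14.8 in the knockdown, PMAIP1, the gene of NOXA, at 47.2 FPKM in wild type and 31.7 in the knockdown, and the death receptor TNFRSF10B at 47.7 FPKM in wild type and 34.9 in the knockdown, while TNFRSF10A was at 8.06 FPKM in wild type and 12.8 in the knockdown. CDKN1A, the cell cycle inhibitor p21, was at 1.38 FPKM in untreated wild type, 1.13 in the untreated knockdown, 28.5 in wild type with palmitate and 13.5 in the knockdown with palmitate, a ratio of -1.02 with an interval of -3.43 to 1.39. It was the member of the p53 target list past 2-fold. That list was otherwise mixed, with 8 of 13 below 0, against 43.7% of all examined genes, and a median of -0.07.

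Lists of lipid metabolism had medians of -0.11 to 0.03, against 0.03 for all examined genes. The glycerolipid and lipid droplet list had a median of 0.03, with 15 of 28 above 0. AGPAT9, now GPAT3, an acyltransferase that starts glycerolipid synthesis (chr4:84457067-84527027, hg19), was at 7.52 FPKM in untreated wild type, 5.18 in the untreated knockdown, 34.2 in wild type with palmitate and 15.5 in the knockdown with palmitate, a ratio of -1.09. AGPAT6, now GPAT4, which catalyses the same step, was at 11.9 FPKM in wild type and 11.8 in the knockdown, and AGPAT5 at 10.5 FPKM in wild type and 14.4 in the knockdown. Fatty acid synthesis and desaturation had a median of 0.02. Of its 13 examined members 8 were above 0 and 5 below. Apart from OLAH, the desaturase FADS1 was at 177 FPKM in wild type and 275 in the knockdown, and the desaturase SCD at 188 and 204. The desaturase FADS2 went the other way, with a ratio of -0.44. FASN, fatty acid synthase, was at 40.8 FPKM in wild type and 49.7 in the knockdown. Genes of uptake and oxidation had a median of -0.11, with CPT1A, which admits fatty acids to mitochondria, at 12.1 FPKM in wild type and 13.8 in the knockdown. Cholesterol synthesis, at -0.02, and sphingolipid synthesis, at -0.03, were split about evenly, 12 of 25 and 8 of 17 above 0.

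Interferon-related genes, a group that RNF213 belongs to, showed both directions. Of 20 examined members 11 were below 0 and 9 above, with a median of -0.11 that turned to 0.29 among the 10 members with a mean of at least 5 FPKM. Beside IFI16, GBP2, an interferon-induced GTPase, was at least 2-fold lower (3.39 FPKM in wild type and 1.07 in the knockdown), and IFI30, a lysosomal reductase, at least 2-fold higher (17.6 FPKM in wild type and 37.5 in the knockdown). ISG15, a ubiquitin-like modifier, was at 11 FPKM in wild type and 10.0 in the knockdown. MX1 was listed at or near 0 in all 4 libraries. Ubiquitin ligases and enzymes known from work on RNF213 and linear ubiquitin had a median of -0.02, with 12 of 21 below 0. RBCK1, the gene of HOIL-1, was at 12.8 FPKM in wild type and 7.66 in the knockdown, and UBE2N, the gene of UBC13, at 48.4 FPKM in wild type and 60.9 in the knockdown.

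Erythroid genes stood furthest above the median of all genes. Of 29 examined members 28 had a ratio above 0, the median was 0.73, and 9 were at least 2-fold higher. Those 9 were HBZ, HBA2, HBA1, HEMGN, KLF1, AHSP, HBE1, NFE2 and HBG2. Of all examined genes 55.4% were above 0 and 0.551% at least 2-fold higher. Of the palmitate-lowered genes 94.1% were above 0, with a median of 0.37, and 4.03% were at least 2-fold higher. NFE2, a transcription factor of red cells and platelets, was at 81.1 FPKM in untreated wild type, 92.8 in the untreated knockdown, 21 in wild type with palmitate and 44.7 in the knockdown with palmitate, a ratio of 1.05. GATA1, the master factor of the lineage, was at 70.4 FPKM in untreated wild type, 73.1 in the untreated knockdown, 36.4 in wild type with palmitate and 55.5 in the knockdown with palmitate, a ratio of 0.59 with an interval of -0.42 to 1.61. ALAS2, the first enzyme of red cell heme synthesis, was at 6.15 FPKM in wild type and 11.6 in the knockdown, while TFRC, the transferrin receptor, and TAL1 were at 149.9 FPKM in wild type and 155 in the knockdown and at 20.1 FPKM in wild type and 21.7 in the knockdown. HBG1 and HBG2, near-identical fetal globin genes, summed to 4325 FPKM in wild type and 8253 in the knockdown. The globin genes together took 0.874% of summed FPKM in wild type and 1.67% in the knockdown under palmitate, and 1.75% and 2.17% without fatty acid. The median response of the list was -0.86, -1.88 and -0.81 in wild type and -0.34 in the knockdown. For 21 of 29 genes the knockdown's response was above all 3 wild-type responses, against 17.3% of all examined genes and 62.3% of the palmitate-lowered genes. Untreated, the list's median was 0.18, or 0.06 with the GC trend removed. In such bulk RNA, fewer cells of a kind and less RNA per cell cannot be told apart.

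**Figure D5:**
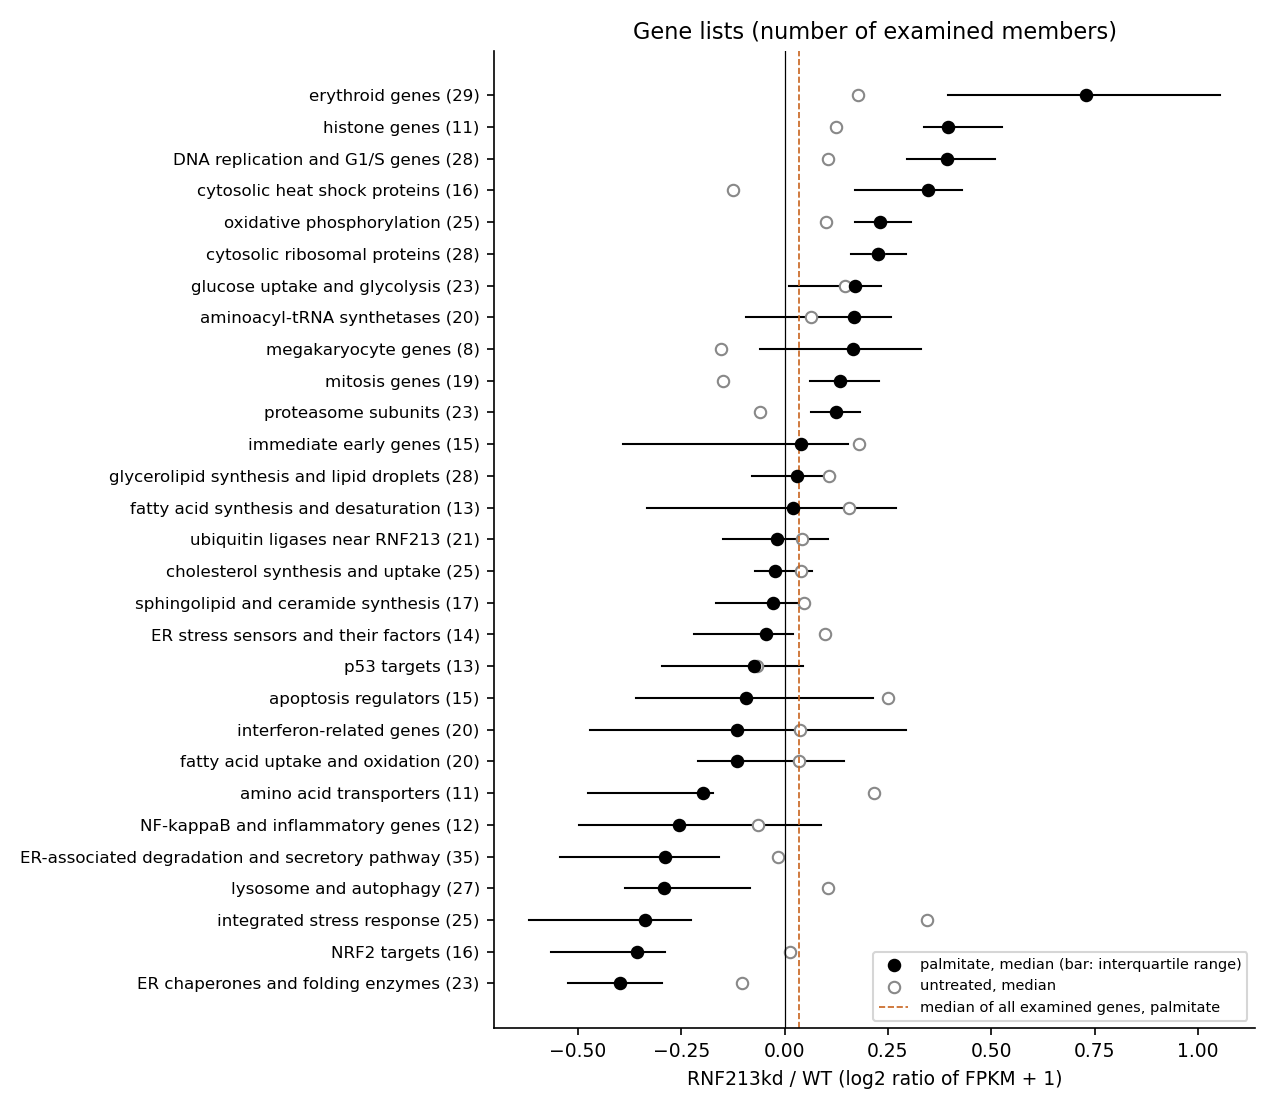
Median log2 ratio of RNF213kd to wild type (x axis) for each gene list (y axis, with the number of examined members), filled under palmitate with the interquartile range as a bar, open untreated. The dashed line is the median of all examined genes under palmitate, 0.03. Erythroid genes lie highest at 0.73 and ER chaperones lowest at -0.40.

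Several other lists had a median above 0 in the knockdown under palmitate, by smaller amounts. All 28 examined genes of DNA replication were above 0, against 55.4% of all examined genes, with a median of 0.39. MCM4 and MCM6, subunits of the replicative helicase, were at 33 FPKM in wild type and 54.9 in the knockdown and at 35 FPKM in wild type and 55 in the knockdown, and PCNA, the polymerase clamp, at 164 FPKM in untreated wild type, 134 in the untreated knockdown, 60.1 in wild type with palmitate and 81.3 in the knockdown with palmitate. Mitosis genes were above 0 in 17 of 19, with a median of 0.13, led by TOP2A, a topoisomerase, at 67.1 FPKM in wild type and 98.7 in the knockdown. Cytosolic heat shock proteins had a median of 0.35 with 14 of 16 above 0, opposite in sign to the ER chaperones. HSPA8 and HSP90AA1, the main cytosolic chaperones, were at 1449 FPKM in untreated wild type, 1166 in the untreated knockdown, 922 in wild type with palmitate and 1273 in the knockdown with palmitate and at 516 FPKM in wild type and 726 in the knockdown. All members examined were also above 0 among 25 genes of oxidative phosphorylation (median 0.23) and 23 of the proteasome (0.12). The same held for 28 cytosolic ribosomal proteins (0.23) and 11 histone genes (0.40). Histone transcripts mostly lack the poly(A) tail by which these libraries were selected. Ribosomal protein genes had the same median untreated, 0.23, or 0.17 with the GC trend removed. Glycolysis genes were above 0 in 19 of 23, and aminoacyl-tRNA synthetases in 13 of 20, a share near that of all examined genes.

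The libraries carried the markers of K562. All 10 K562 markers, among them GATA1, BCR and ABL1, were expressed in both palmitate libraries. Markers of B cells and endothelial cells reached 1 FPKM in neither, with MS4A1, BLK, CDH5 and KDR at 0. Of T cell markers 1 of 6 reached 1 FPKM (CD3D), of fibroblast markers 1 of 7 (COL1A2), of monocyte markers 2 of 7 (LYZ and CD68) and of epithelial markers 4 of 7. CD2, S100A8, LUM, PDGFRA, KRT5 and KRT14 were listed at 0. Summed epithelial markers were at 567 FPKM in wild type and 474 in the knockdown with palmitate, and at 325 and 321 without, carried by KRT8 and KRT18.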

How the data were processed

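Stranded poly(A)-selected libraries of pooled RNA were sequenced in paired ends, in 1 of 2 run modes that the labels do not assign to libraries. The series' design text and the submitters' processing notes name TopHat2 and hg19 for mapping and Cuffdiff for normalisation and quantification, and the design text adds a correction for reads that map to several places. Their versions are not given in the sources used here. The values deposited by the authors are FPKM per gene, scaled within each of 3 tables. Only libraries of 1 table were set against each other. Left out were 26 symbols damaged into dates, genes with a failed or capped estimate, genes whose repeated listings differed by over 0.01 relative to their level, and 2 libraries that are not in the labels.

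Ratios are differences of log2(FPKM + 1) over genes that average 1 FPKM or more in 11 labelled libraries. A call is a 2-fold difference, with no test. Secondary tests used limma 3.58.1 under R 4.3.3, with moderated variances that follow expression level and Benjamini-Hochberg adjustment, and took the spread of 3 wild-type ratios paired by experiment (2 residual and 4.02 prior degrees of freedom). The step was run on simulated data in which the knockdown ratio had the same spread as the wild-type response. The assumption that single libraries vary in that way was therefore built in and was not tested. The pairing comes from the tables, each of which holds its own untreated and palmitate wild type. Intervals measure the spread between experiments, each with pooled RNA. The named genes are RNF213 and the 15 largest differences each way among genes at 5 FPKM or more that are not small RNAs. Others come from a panel of stress and lipid genes and from the 4 members of each list with the largest difference. Not every panel gene or list member of that rank is named. Other members of those lists, and genes called exceptions, were named after their values were seen. The comparison, gene lists and rules were chosen with earlier results of these data known. GC content came from GRCh37 transcripts and was matched for 96.0% of examined genes. Promoter sequences are RefSeq, GRCh38.p14, and serve for letters and names only.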

Additional observations from a re-analysis of the deposited data

Results flagged for a closer look

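For 3 gene lists the knockdown and wild type differed in opposite directions with and without palmitate, in at least 80% of the members each time. The difference between the conditions was not tested for these lists, since each rests on 1 library per group. In the integrated stress response the median ratio was 0.34 without fatty acid and -0.34 with palmitate, a difference of -0.68. Amino acid transporters had 0.22 and -0.20, a difference of -0.41. Mitosis genes ran the other way, with -0.15 and 0.13, a difference of 0.28. With the GC trend removed the untreated medians of the 3 lists were 0.15, 0.11 and -0.12, with 21 of 25, 8 of 11 and 14 of 19 members on that side. The sign of the medians was the same and their size smaller, and only the integrated stress response still had at least 80% of its members on 1 side. For single genes limma called 18 differences between the 2 conditions, and each was a small RNA gene.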

How the results depend on the processing

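The median ratios of palmitate-raised and palmitate-lowered genes kept their sign in all 9 alternatives run for them, at -0.57 to -0.33 and 0.16 to 0.67, while with the GC trend removed the lists themselves held 583 and 175 genes in place of 524 and 472. With the pseudocount at 0.1 FPKM, 117 genes were at least 2-fold higher and 158 lower, without small RNA genes 27 and 56, and at a mean of at least 5 FPKM 51 were lower. At 1.5-fold the counts were 265 higher and 339 lower, and at 4-fold 28 and 22. Without small RNA genes limma called 0, although 67 had an unadjusted p under 0.05. It called 6 with no replicate block, that is, with experiments not paired. Leaving out experiments from the spread gave 11 to 64 calls. The 64 came without experiment 2, and 13 of them were other than small RNA genes, among them HBZ, FAM178B and COL6A2. The median of interferon-related genes turned to 0.29 at a mean of at least 5 FPKM, where 10 members were examined, and that of immediate early genes to -0.08. The medians of the glycerolipid and fatty acid synthesis lists, at 0.03 and 0.02, fell just below 0 when ratios were centred or the GC trend was removed. Of 37 named genes past 2-fold 36 stayed past it in every alternative run, all but HBG2. Single-gene ratios were run only with the other pseudocount, centred, without small RNA genes and with the GC trend removed. Leaving out small RNA genes cannot change a ratio, and a smaller pseudocount can only enlarge it. Only centring and removal of the GC trend could therefore undo a call. Another 6 named genes passed 2-fold under some alternative, namely INHBE, ISG20, FKBP11, DUSP5 and HIST1H3B at a pseudocount of 0.1 FPKM (-1.02, -1.39, -1.11, -1.07 and 1.09), and IER3 when centred (-1.01). INHBE and ISG20 also passed it when centred and with the GC trend removed (both -1.03 in each). Read depth is unknown, so no counting limit can be given.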

Other observations

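Experiment 2 held cells with a knockout of GPAT4, an enzyme that starts glycerolipid synthesis, and their ratio to wild type under palmitate shares no library with the RNF213 comparison. All 15 genes furthest lower in the RNF213 knockdown were also lower in the GPAT4 knockout, and 13 of the 15 furthest higher were also higher. Of all examined genes 46.3% were lower and 52.9% higher in the GPAT4 knockout. Among the 756 genes that palmitate raised at least 2-fold in experiment 1, which shares no library with either ratio, 89.8% were lower, and among the 1244 that it lowered 78.9% were higher. IFI16 was at 91.5 FPKM in wild type and 4.34 in the knockout, OLAH at 82.8 and 1.15, and G0S2 at 65.9 and 2.04. KLF1 was at 3.54 and 48.4 and HEMGN at 6.91 and 64.9. HBE1 and MS4A3 were the exceptions, with knockout ratios of -1.69 and -1.89. IL8, which differed little with the RNF213 knockdown, was at 695 FPKM in wild type and 12.8 in the knockout, and PLIN2 at 175 and 199. Across all examined genes Spearman's rho between the 2 ratios was 0.62, given as a description. The RNF213 ratio also follows the wild-type palmitate response, and what the 2 genotypes share was not tested.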
